A study of Mus musculus with 18 samples.

Results

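The AP-1 and EGR immediate-early genes examined here were Fos, Fosb, Fosl1, Jun, Junb, Jund, Egr1, Egr2, Ier2 and Ier3. They were taken by gene symbol from a table of read counts, with the rows of each symbol summed, and all 10 were present among 32699 symbols. Of the 10, 9 had enough counts to be tested, among 12145 tested symbols. Egr2 was not tested.

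The cells were PyMT-BO1, a luminal B-like mouse breast cancer line of C57BL/6 background, and every culture lacked endogenous integrin β3 through a knockout. Onto that knockout, 3 lines were built by retroviral rescue: Δβ3 with a signalling-deficient mutant integrin β3, hβ3 with a functional human integrin β3, and pMx with the empty vector. Each line was cultured for 24 h with 10 nM docetaxel, a taxane that stabilises microtubules, or with DMSO, with 3 biological replicate cultures in each of the 6 groups. Since every construct is represented by 1 line, effects of the construct and of any other property of that line cannot be told apart, and p-values measure the spread between cultures.

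Immediate-early genes are transcribed within minutes of a stimulus, from factors already present in the cell. Growth factor receptors, integrins and stress act on them through MAP kinases, ELK factors bound with SRF, and CREB. FOS proteins pair with JUN proteins as AP-1, a leucine zipper dimer that binds TGANTCA-type sites, while EGR proteins bind GC-rich sites through zinc fingers. In breast tumour cells AP-1 is known for its part in proliferation, invasion and protease expression. The cultures were harvested after 24 h, so the counts describe a standing level and not the first hour of a response.

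Total counts per library ran from 7.97 to 18.96 in units of 1e6 counts. In 2 cultures of the Δβ3 line heart muscle transcripts were abundant: the summed level of 22 heart markers reached 43748 CPM (counts per 1e6 counts of scaled library size) in culture 2 of Δβ3 with docetaxel, and 5244 CPM in culture 1 of Δβ3 with DMSO, against 170 to 2210 CPM in the other 16 libraries. Among those 16 libraries the highest sums were in pMx, up to 2210 CPM in docetaxel and 1917 CPM in DMSO (median 1292 CPM). In hβ3 the sums reached at most 682 CPM in docetaxel and 459 CPM in DMSO. The pMx cultures with these higher sums stay in every fit on 16 libraries. Of these markers 21 had counts and Nppb was at 0. Fibroblast markers summed to 1136 and 193 CPM in the same cultures, against 15.1 to 77.5 CPM elsewhere, endothelial markers to 616 and 65.4 CPM, against 3.08 to 30.7 CPM, leukocyte markers to 188 and 30.3 CPM, against 3.83 to 15.2 CPM, and basal markers to 147 and 16.1 CPM, against 1.31 to 9.84 CPM. The ribosomal RNA precursor Rn45s took 23.6% and 41.5% of their counts, against 6.92% to 10.0% in the other Δβ3 cultures, 10.9% to 33.0% in hβ3 and 6.59% to 9.81% in pMx. The part of these transcripts in the differences between lines was not tested. Results are therefore given for all 18 libraries and, beside them, for the 16 without these cultures. In the 16, each Δβ3 group has 2 cultures and each other group has 3. The variation between cultures that edgeR estimated (biological coefficient of variation) was 36.1% with 18 libraries and 13.2% with 16. Of the luminal markers, Krt8 (646 to 1907 CPM) and Krt18 (544 to 1577 CPM) were abundant, while Gata3 and Elf3 had 0 counts and Krt19, Epcam and Esr1 at most 3. Itgb3 averaged 96.6 ± 26.0 CPM in Δβ3, 109 ± 31.7 CPM in hβ3 and 0.965 ± 0.557 CPM in pMx in DMSO (SD, n = 3 each). In docetaxel it had 114, 32.9 and 108 CPM in Δβ3, with the heart-rich culture lowest, 107 ± 10.2 CPM in hβ3 and 0.633 ± 0.210 CPM in pMx. It thus sets pMx apart from the other lines and does not check which of those is Δβ3 and which hβ3. By label the hβ3 construct is human, while reads were aligned to the mouse genome mm10. Itgb3 CPM are therefore not levels of the constructs on a common scale.

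Per kilobase of the counted transcript, the members spanned a wide range of levels. Averaged over all libraries, Ier3 stood highest at 212 CPM per kb, followed by Jun at 151, Jund at 93.0, Fosl1 at 36.3, Ier2 at 32.9, Egr1 at 23.4 and Junb at 23.2. Fosb at 4.77, Fos at 2.55 and Egr2 at 0.0338 CPM per kb were the lowest. Thus the member with the smallest tested level, Fos, rested on 6 to 289 counts per library.

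**Figure D1:**
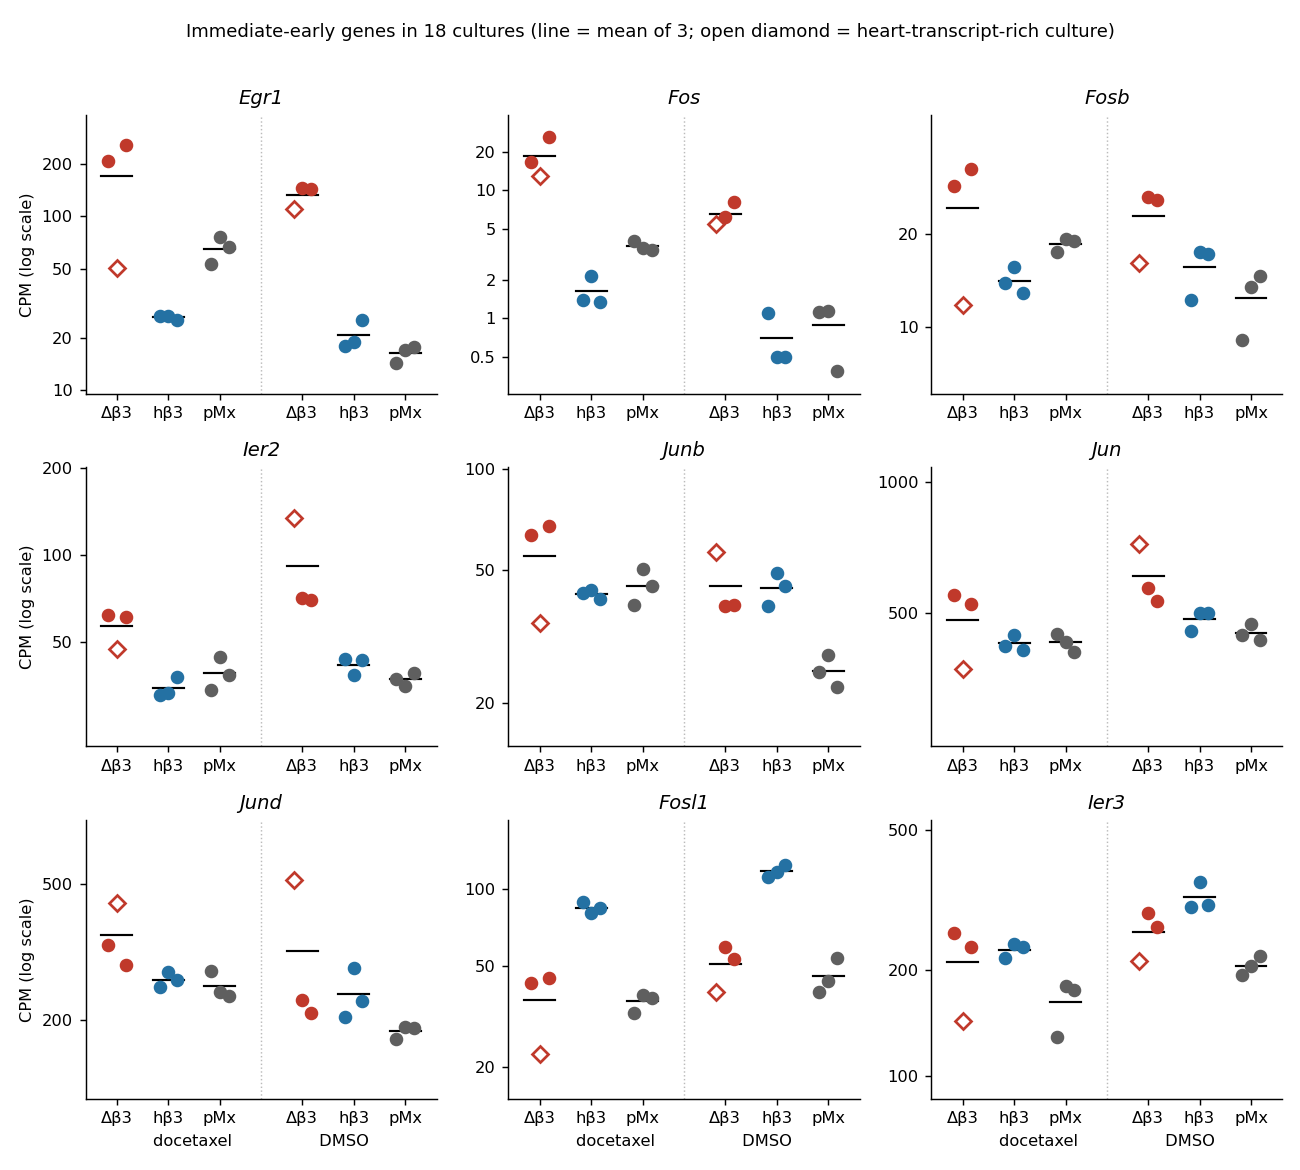
Level of the 9 tested genes in each culture, in CPM on a log axis, for Δβ3, hβ3 and pMx in docetaxel (left of each panel) and DMSO (right). Each point is a culture, the line is the mean of 3, and open diamonds are the 2 cultures rich in heart transcripts. For Egr1 and Fos, each Δβ3 culture in DMSO lies above every hβ3 and pMx culture in DMSO.

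Egr1 and Fos were much higher in the Δβ3 line than in both other lines, Ier2 was higher than in both lines in DMSO, and Fosl1 was lower than in hβ3 only. Egr1 encodes a zinc finger activator, Fos the prototype partner of JUN in AP-1, Ier2 a small nuclear immediate-early protein and Fosl1 the FOS-family protein FRA-1. Against pMx in DMSO, 3 of the 9 tested members rose and none fell, while 0.0329% of all tested genes rose and 0.00823% fell at an adjusted p under 0.05 (edgeR quasi-likelihood test, Benjamini-Hochberg adjustment). Only 5 of 12145 genes were called there, and the remaining ones were Itgb3 and Igsf11. With 16 libraries, 5 members rose (Egr1, Fos, Fosb, Ier2 and Junb), where 0.275% of genes rose and 0.0567% fell. Against hβ3 in DMSO, 3 members rose and 1 fell, where 6.86% of genes rose and 6.27% fell. With 16 libraries 5 members rose and 1 fell, where 12.2% of genes rose and 11.1% fell. The median log2 difference of the tested members over pMx in DMSO was 0.85, beside 0.02 for all tested genes, and over hβ3 it was 0.42, beside 0.00. With 16 libraries these medians were 0.64 over pMx and 0.20 over hβ3.

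Egr1 (chromosome 18, 34859823 to 34864984, plus strand, mm10) had 109.6, 145 and 144 CPM in the 3 Δβ3 cultures in DMSO, 17.9, 18.8 and 25.2 CPM in hβ3 and 14.3, 16.9 and 17.7 CPM in pMx. No Δβ3 culture overlapped those of the other lines, including the heart-rich one, which was the lowest of the Δβ3 values. Its log2 difference was 3.03 ± 0.41 (SE) over pMx, an 8.15-fold higher level (adjusted p = 0.00703), and 2.69 ± 0.40 over hβ3 (adjusted p = 0.000327). With 16 libraries these became 3.14 ± 0.15 and 2.83 ± 0.15. In docetaxel Egr1 had 207, 50.5 and 255 CPM in Δβ3, 26.6, 26.6 and 25.4 CPM in hβ3 and 53.2, 75.5 and 66.3 CPM in pMx. The heart-rich culture, at 50.5 CPM, lay below the pMx cultures, and the other Δβ3 cultures were above all of them. Over pMx in docetaxel the log2 difference was 1.40 ± 0.38 (adjusted p = 0.347) with 18 libraries and 1.82 ± 0.14 (adjusted p = 1.3e-06) with 16, and over hβ3 it was 2.71 ± 0.40 (adjusted p = 0.000475) and 3.14 ± 0.15.

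Fos (chromosome 12, 85473890 to 85477273, plus strand, mm10) was the tested member with the lowest level, and over hβ3 it had the largest log2 difference of the 9. In DMSO it had 5.43, 6.21 and 8.13 CPM in Δβ3, 1.11, 0.496 and 0.497 CPM in hβ3 and 1.13, 1.15 and 0.387 CPM in pMx. The log2 difference was 2.89 ± 0.41 over pMx (adjusted p = 0.00703) and 3.22 ± 0.41 over hβ3 (adjusted p = 4.8e-05). In docetaxel it had 16.6, 13.1 and 25.9 CPM in Δβ3, 1.38, 2.14 and 1.35 CPM in hβ3 and 4.02, 3.55 and 3.42 CPM in pMx. Again no Δβ3 culture overlapped those of the other lines. The log2 difference was 2.34 ± 0.38 over pMx (adjusted p = 0.0421) and 3.51 ± 0.40 over hβ3 (adjusted p = 2.5e-05). With 16 libraries the Fos differences over pMx were 3.02 ± 0.34 in DMSO and 2.53 ± 0.28 in docetaxel. The call in docetaxel held in 4 of the 18 fits that left out 1 library, with adjusted p up to 0.626, and in all 16 such fits on 16 libraries.

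Start-site sequences are shown for Fos, Fosb and Junb, members that were higher in Δβ3 than in pMx in DMSO with 16 libraries and for which a promoter entry was used, so that their short motifs can be compared. They run from 250 bases before to 50 bases after the RefSeq start on GRCm38.p6, 5′ to 3′ on the gene's strand, with TGACG, the shared core of CREB and ATF sites, in capitals:
Fos (chr12:85473640-85473939, plus strand): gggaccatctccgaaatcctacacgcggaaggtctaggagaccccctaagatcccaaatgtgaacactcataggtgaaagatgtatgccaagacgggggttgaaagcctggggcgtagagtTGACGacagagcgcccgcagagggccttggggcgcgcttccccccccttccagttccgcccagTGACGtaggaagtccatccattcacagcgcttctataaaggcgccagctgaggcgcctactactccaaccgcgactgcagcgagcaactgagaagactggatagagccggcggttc
Fosb (chr7:19309996-19310295, minus strand): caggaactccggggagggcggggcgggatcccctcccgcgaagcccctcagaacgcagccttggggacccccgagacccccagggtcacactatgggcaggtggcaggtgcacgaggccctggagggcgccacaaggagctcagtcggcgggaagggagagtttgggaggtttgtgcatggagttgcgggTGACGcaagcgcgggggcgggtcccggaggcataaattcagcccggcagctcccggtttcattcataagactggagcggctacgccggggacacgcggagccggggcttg
Junb (chr8:84978699-84978998, minus strand): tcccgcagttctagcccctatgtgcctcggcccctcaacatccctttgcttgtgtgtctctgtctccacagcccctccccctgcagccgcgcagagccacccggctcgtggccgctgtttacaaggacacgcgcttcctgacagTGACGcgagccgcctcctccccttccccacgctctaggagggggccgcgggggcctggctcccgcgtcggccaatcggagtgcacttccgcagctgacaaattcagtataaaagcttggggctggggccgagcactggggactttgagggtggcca

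The 3 windows each held TGACG, at -129 and -66 from the start in Fos, at -60 in Fosb and at -106 in Junb. The windows of Jun, Jund and Ier3 held TGACG on neither strand, and only some of the Egr2 windows held it. The Jund window (chr8:70697489-70697788, plus strand) ends before the GENCODE Jund start at 70698949. Sequence at that start was therefore not searched. That 5-letter core was in 20.8% of all 32851 windows of this length on either strand, so its presence is common. Fosb also held GCGGGGGCG at -50, a match to the EGR motif GCGNGGGCG found in 5.55% of windows, which overlaps a GGGCGG match at -46 (35.7% of windows). Fos held TATAAA, in 13.6% of windows, at -33, and Junb held it at the RefSeq start itself. GENCODE places the Junb start at 84978718, downstream of that RefSeq start. Neither the full TGACGTCA (in 1.79% of windows) nor TGANTCA (7.81%) nor the CArG box (1.63%) occurred in the windows of Fos, Fosb, Junb and Jun. Several windows were scanned for Egr2, and all but the first held a CArG box, as CCTTTTTTGG or CCATATATGG. Sequence further than 250 bases before the start was not searched. These are letter matches and not measurements of binding.

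Fosb (chromosome 7, 19302696 to 19310051, minus strand), which makes an AP-1 subunit close to FOS, was less clear. In DMSO it had 16.1, 26.5 and 26.0 CPM in Δβ3, 12.2, 17.5 and 17.2 CPM in hβ3 and 9.09, 13.5 and 14.6 CPM in pMx. The Δβ3 cultures lay above pMx, and the lowest, which was heart-rich, overlapped hβ3. The log2 difference over pMx was 0.88 ± 0.30 (adjusted p = 0.458) with 18 libraries and 1.06 ± 0.17 (adjusted p = 0.00196) with 16. In docetaxel Fosb had 28.6, 11.8 and 32.6 CPM in Δβ3, 13.8, 15.6 and 12.9 CPM in hβ3 and 17.6, 19.3 and 19.0 CPM in pMx, where the heart-rich culture was the lowest of all 9. Over hβ3 its log2 difference was 0.79 ± 0.30 (adjusted p = 0.0922) with 18 libraries and 1.12 ± 0.17 (adjusted p = 1.6e-05) with 16. Over pMx in docetaxel it was 0.39 ± 0.30 (adjusted p = 0.609) with 18 libraries and 0.71 ± 0.17 (adjusted p = 0.0600) with 16.

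Fosl1 (chromosome 19, 5447547 to 5455946, plus strand) followed another order. It had 39.5, 59.4 and 53.2 CPM in Δβ3, 111, 117 and 125 CPM in hβ3 and 39.3, 43.4 and 53.6 CPM in pMx in DMSO. In docetaxel the values were 42.7, 22.5 and 44.8 CPM in Δβ3, 88.8, 80.4 and 84.2 CPM in hβ3 and 32.7, 38.4 and 37.5 CPM in pMx. Every hβ3 culture was above every culture of the other lines, and Δβ3 overlapped pMx in DMSO. In docetaxel the heart-rich Δβ3 culture, at 22.5 CPM, was below every pMx culture, and the other Δβ3 cultures were above them all. Fosl1 was lower in Δβ3 than in hβ3 by -1.21 ± 0.21 on the log2 scale in DMSO (adjusted p = 0.000886) and -1.20 ± 0.21 in docetaxel (adjusted p = 0.00152), and with 16 libraries by -1.05 ± 0.12 and -0.95 ± 0.12. It was higher in hβ3 than in pMx by 1.37 ± 0.21 in DMSO (adjusted p = 0.000384) and 1.22 ± 0.21 in docetaxel (adjusted p = 0.0013), and with 16 libraries by 1.35 ± 0.10 and 1.21 ± 0.10. Between Δβ3 and pMx the log2 difference was 0.16 in DMSO, with a 95% interval of -0.29 to 0.60, and 0.02 in docetaxel, with an interval of -0.42 to 0.47. With 16 libraries it was 0.30 in DMSO (0.07 to 0.54) and 0.26 in docetaxel (0.02 to 0.50). Neither was called (adjusted p = 0.419 and 0.486).

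**Figure D2:**
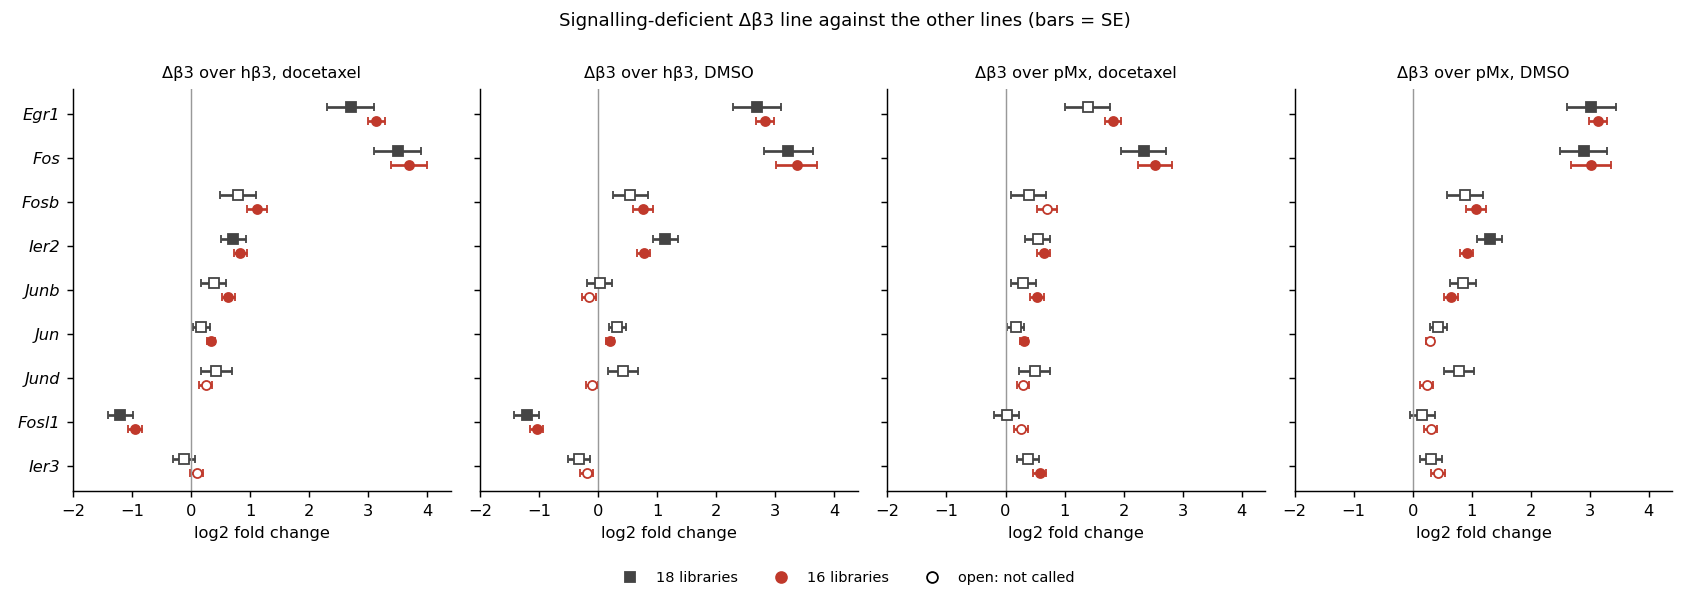
Log2 fold change of the 9 tested genes for Δβ3 over hβ3 and over pMx, in docetaxel and DMSO, with bars of 1 SE. Grey squares are from 18 libraries and red circles from 16, and filled symbols have an adjusted p under 0.05. Egr1 and Fos lie furthest to the right in each panel, and Fosl1 lies left of 0 against hβ3.

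The JUN-family genes, whose proteins pair with FOS proteins, differed less. Jun (chromosome 4, 95049034 to 95052222, minus strand) had 719, 571 and 534 CPM in Δβ3, 454, 501 and 501 CPM in hβ3 and 445, 472 and 435 CPM in pMx in DMSO, where the Δβ3 cultures did not overlap the others. Its log2 difference over pMx was 0.43 ± 0.14 (adjusted p = 0.458), and with 16 libraries 0.29 ± 0.07 (adjusted p = 0.0844). Junb (chromosome 8, 84974484 to 84978718, minus strand), a JUN protein with weaker activation than JUN, had 56.3, 39.0 and 39.1 CPM in Δβ3, 38.9, 48.8 and 44.6 CPM in hβ3 and 24.8, 27.7 and 22.2 CPM in pMx in DMSO. Thus Δβ3 and hβ3 overlapped and both stood above pMx. The Junb log2 difference over pMx was 0.83 ± 0.22 for hβ3 (adjusted p = 0.0208) and 0.85 ± 0.22 for Δβ3 (adjusted p = 0.458). With 16 libraries it was 0.81 ± 0.11 for hβ3 and 0.64 ± 0.12 for Δβ3 (adjusted p = 0.00953). The hβ3 call held in 14 of 18 fits that left out 1 library, with adjusted p up to 0.106. Jund, the JUN-family member least tied to growth stimuli, ranged from 209 to 516 CPM in Δβ3, from 204 to 283 CPM in hβ3 and from 175 to 190.4 CPM in pMx in DMSO. Its highest value was in the heart-rich culture, and its difference over pMx was 0.78 ± 0.26 with 18 libraries and 0.24 ± 0.11 with 16, with neither called.

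In docetaxel the JUN-family values of the heart-rich culture stood apart from those of the other Δβ3 cultures. Junb had 63.3, 34.5 and 67.5 CPM in Δβ3, 42.4, 43.4 and 40.9 CPM in hβ3 and 39.3, 50.4 and 44.7 CPM in pMx. The heart-rich culture, at 34.5 CPM, was the lowest of the 9, and the other Δβ3 cultures were the highest. Over hβ3 the Junb log2 difference was 0.39 ± 0.21 (adjusted p = 0.242) with 18 libraries and 0.63 ± 0.12 (adjusted p = 0.000184) with 16. Jun had 549.9, 372 and 525 CPM in Δβ3, 421, 446 and 412 CPM in hβ3 and 449, 430.0 and 408 CPM in pMx, with the same culture lowest. Its difference over hβ3 was 0.18 ± 0.14 (adjusted p = 0.434) with 18 libraries and 0.34 ± 0.07 (adjusted p = 0.000952) with 16. Jund had 332, 440.1 and 289 CPM in Δβ3, 249, 276 and 261 CPM in hβ3 and 277, 241 and 235 CPM in pMx. Here the heart-rich culture was the highest, the Δβ3 cultures overlapped neither line, and no Jund difference between Δβ3 and another line was called in either fit.

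Of the IER genes, Ier2 (chromosome 8, 84661331 to 84662852, minus strand) had 134, 70.8 and 69.8 CPM in Δβ3, 43.5, 38.3 and 43.2 CPM in hβ3 and 37.1, 35.2 and 39.1 CPM in pMx in DMSO. The 134 CPM came from the heart-rich culture, and the other Δβ3 cultures also lay above all hβ3 and pMx cultures. The log2 difference over pMx was 1.30 ± 0.21 (adjusted p = 0.0264) with 18 libraries and 0.91 ± 0.11 (adjusted p = 3.0e-05) with 16. The 18-library call held in 8 of 18 fits that left out 1 library, with adjusted p up to 0.329. In docetaxel Ier2 had 61.8, 47.2 and 61.0 CPM in Δβ3, 32.6, 33.3 and 37.8 CPM in hβ3 and 34.0, 44.4 and 38.3 CPM in pMx, again without overlap. Over hβ3 in docetaxel the difference was 0.72 ± 0.21 (adjusted p = 0.0385), held in 7 of 18 such fits, and with 16 libraries 0.83 ± 0.11. Over pMx in docetaxel it was 0.55 ± 0.21 (adjusted p = 0.347) with 18 libraries and 0.65 ± 0.11 (adjusted p = 0.00347) with 16. Ier3, which encodes a survival-linked stress response protein, had 212, 292 and 266 CPM in Δβ3, 303, 357 and 306 CPM in hβ3 and 193, 205 and 219.8 CPM in pMx in DMSO. It was higher in hβ3 than in pMx by 0.64 ± 0.19 (adjusted p = 0.0382), a call that held in 6 of 18 fits that left out 1 library (adjusted p up to 0.157), and by 0.62 ± 0.10 with 16 libraries. Its difference between Δβ3 and either line in DMSO was not called. In docetaxel Ier3 had 256, 143 and 233 CPM in Δβ3, 216, 238 and 232 CPM in hβ3 and 129, 180.5 and 176 CPM in pMx, with the heart-rich culture lowest of the Δβ3 values. Its log2 difference over pMx was 0.38 ± 0.19 (adjusted p = 0.378) with 18 libraries and 0.58 ± 0.11 (adjusted p = 0.0168) with 16. Egr2, a second EGR factor, had 0 to 6 counts per library and 23 in all, of which hβ3 cultures in DMSO held 0, and no fold is given.

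In docetaxel, 1 member (Fos) rose in Δβ3 over pMx, where 0.0165% of genes rose and 0.00823% fell. With 16 libraries 6 members rose (Egr1, Fos, Ier2, Ier3, Jun and Junb), where 0.372% of genes rose and 0.0809% fell. Over hβ3 in docetaxel 3 rose and 1 fell, where 5.69% of genes rose and 4.38% fell, and with 16 libraries 6 rose and 1 fell, where 10.3% rose and 9.6% fell. In hβ3 over pMx, 3 members rose in DMSO (Fosl1, Ier3 and Junb), where 4.88% of genes rose and 4.13% fell. With 16 libraries Jund joined them, where 13.3% rose and 13.5% fell. In docetaxel Fosl1 rose and Egr1 fell in hβ3 relative to pMx, where 4.63% of genes rose and 3.83% fell. With 16 libraries Ier3 also rose and Fos also fell, where 15.2% rose and 12.2% fell. The Egr1 difference there was -1.31 ± 0.39 (adjusted p = 0.0479), and it held in 3 of 18 fits that left out 1 library.

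Fos averaged more CPM in docetaxel than in DMSO in each line, and Egr1 had its largest log2 difference in pMx. In pMx 3 members rose (Egr1, Fos and Junb), where 1.92% of genes rose and 1.7% fell, and with 16 libraries 5 rose and 2 fell, where 10.3% rose and 11% fell. Egr1 had 53.2, 75.5 and 66.3 CPM in docetaxel and 14.3, 16.9 and 17.7 CPM in DMSO in pMx, a log2 difference of 2.00 ± 0.39 (adjusted p = 0.0108). Fos had a log2 difference of 2.05 ± 0.40 (adjusted p = 0.00869) and Junb of 0.85 ± 0.22 (adjusted p = 0.0363) in that line. The Junb call held in 9 of 18 fits that left out 1 library, with adjusted p up to 0.177. Junb lay between 39.3 and 50.4 CPM in docetaxel and between 22.2 and 27.7 CPM in DMSO, without overlap. Fosb and Jund rose, and Fosl1 and Ier3 fell, with 16 libraries only.

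In Δβ3, Fos alone rose with 18 libraries, where 3.33% of genes rose and 3.53% fell, and Egr1, Junb and Jund joined it with 16, where 5.98% rose and 5.28% fell. Fos rose by 1.49 ± 0.37 (adjusted p = 0.0229), with no overlap between docetaxel and DMSO cultures. Egr1 had 207, 50.5 and 255 CPM in docetaxel and 109.6, 145 and 144 CPM in DMSO, a difference of 0.36 ± 0.38 (adjusted p = 0.556), and of 0.68 ± 0.15 (adjusted p = 0.00604) with 16 libraries. In hβ3, edgeR called 0 members with 18 libraries, where 0.922% of genes rose and 0.239% fell. There 3 members had an unadjusted p under 0.05, beside 9.65% of all genes, and DESeq2 called 0 members and 419 genes in all. With 16 libraries Fos rose and Fosl1 and Ier3 fell in hβ3, where 7.28% rose and 5.17% fell. Egr1 in hβ3 had 26.6, 26.6 and 25.4 CPM in docetaxel and 17.9, 18.8 and 25.2 CPM in DMSO, a difference of 0.35 ± 0.38 (adjusted p = 0.943) with 18 libraries.

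**Figure D3:**
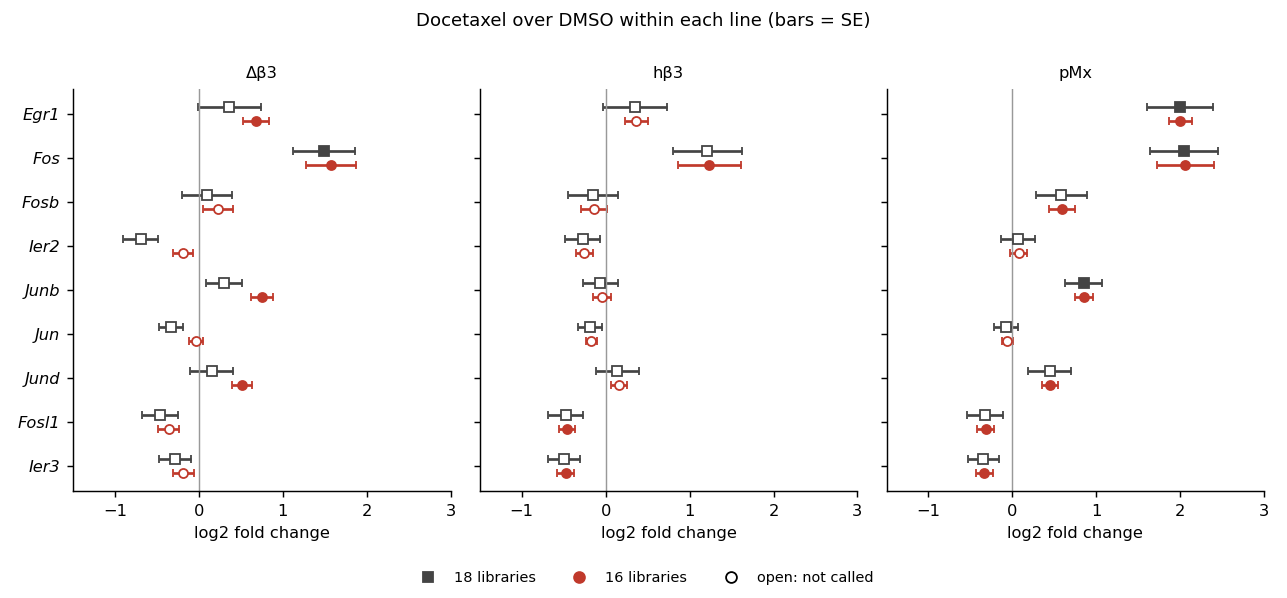
Log2 fold change of docetaxel over DMSO in Δβ3, hβ3 and pMx for the 9 tested genes, with bars of 1 SE, from 18 libraries (grey squares) and 16 (red circles). Filled symbols have an adjusted p under 0.05. Fos lies right of 0 in all 3 lines, and the Egr1 value is larger in pMx, at 2.00, than in the other lines.

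The lines' responses were compared directly. Between Δβ3 and pMx, edgeR called 0 members and 0 genes (0%) with either set of libraries, and 2 members had an unadjusted p under 0.05 with 18 libraries, beside 4.28% of all genes, and 1 with 16, beside 2.86%. DESeq2 called 0 members and 2 genes in all with 18 libraries, and with 16 it called 1 gene, Egr1. The Egr1 response was smaller in Δβ3 by -1.63 ± 0.54 on the log2 scale with 18 libraries (adjusted p = 0.763) and -1.32 ± 0.21 with 16 (adjusted p = 0.0582). Between Δβ3 and hβ3 edgeR called 0 members with 18 libraries, where 0.0412% of genes were called. There 0 members had an unadjusted p under 0.05, beside 8.62% of all genes, and DESeq2 called 0 members and 42 genes in all. With 16 libraries Junb was called at 0.80 ± 0.17 (adjusted p = 0.0197), where 0.591% of genes were. The comparison of hβ3 with pMx was added after the values had been seen. There edgeR called 0 members with 18 libraries, where 0.0165% of genes were called. Of the members 2 had an unadjusted p under 0.05, beside 3.58% of all genes, and DESeq2 called 0 members and 34 genes in all. With 16 libraries Egr1, at -1.64 ± 0.20 (adjusted p = 0.000113), and Junb, at -0.90 ± 0.15 (adjusted p = 0.00128), had smaller responses in hβ3, where 2.3% of genes were called.

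The genes around these members were described from lists of the pathway. Against pMx in DMSO, edgeR called 0 genes with 18 libraries among 21 other immediate-early genes, 7 bZIP partners and co-regulators, 5 SRF and ELK factors, 17 MAP kinase cascade genes, 12 MAP kinase feedback genes and 22 AP-1 targets. At an unadjusted p under 0.05 these lists had 8, 3, 1, 2, 2 and 4 genes in that order, beside 10.1% of all tested genes. DESeq2 on 18 libraries called 3 of these genes, all higher. With 16 libraries, Cyr61, Dusp5, Mmp3 and Tgfb1 rose and none fell. Cyr61, a secreted matrix protein, was higher by 0.80 ± 0.08 and Mmp3, a matrix protease and a known AP-1 target, by 0.80 ± 0.11. Against hβ3 in DMSO more were called, where 6.86% of all genes rose and 6.27% fell with 18 libraries. Of the feedback genes, which damp or report ERK activity, 6 rose and 2 fell (8 and 3 with 16 libraries), with Etv4, an ERK-induced ETS factor, at 1.23 ± 0.26 (0.91 ± 0.20 with 16) and Dusp10, a phosphatase of JNK and p38, at -1.36 ± 0.23 (-1.09 ± 0.10). Etv5, a related ETS factor, was higher by 0.99 ± 0.28 (0.74 ± 0.25). Nab2, a co-repressor that binds EGR proteins, was the 1 of 7 bZIP partners and co-regulators called with 18 libraries, and Mafk, a small MAF protein, also fell with 16, at -0.42. Nab2 had 60.2, 25.7 and 26.8 CPM in Δβ3 in DMSO, with the highest in the heart-rich culture, and 7.34, 10.2 and 7.31 CPM in hβ3, a difference of 2.18 ± 0.31 with 18 libraries and 1.67 ± 0.15 with 16. Of the SRF and ELK factors Elk4 fell, at -0.46 ± 0.12 (-0.37 ± 0.10 with 16 libraries, where 1 of these factors rose and 2 fell). Of the cascade genes 2 rose, the adaptor Shc1 at 2.00 ± 0.28 (1.44 ± 0.13 with 16 libraries) and the ERK kinase Mapk3 at 1.37 ± 0.35 (1.09 ± 0.32), and 2 fell, among them Nras at -0.68 ± 0.16 (-0.51 ± 0.08). With 16 libraries 2 cascade genes rose and 4 fell. Of the AP-1 targets 6 rose and 6 fell (8 and 7 with 16 libraries), with Mmp3 at 4.66 ± 0.34 (4.87 ± 0.13) and Hmox1, a haem oxygenase, at -2.19 ± 0.14 (-2.06 ± 0.11). Of the other immediate-early genes 3 rose and 6 fell (3 and 10 with 16 libraries), with Ier5l at 1.30 ± 0.21 (0.91 ± 0.10), Klf4, a zinc finger factor, at -1.08 ± 0.11 (-1.13 ± 0.09) and Cyr61 at -1.58 ± 0.22 (-1.68 ± 0.08). Their list median was -0.21, beside 0.00 for all genes, and -0.33 with 16 libraries. In docetaxel, edgeR and DESeq2 on 18 libraries called 0 genes of these lists in Δβ3 over pMx, where 8, 2, 0, 1, 1 and 0 genes had an unadjusted p under 0.05 in the order of the lists above, beside 13.9% of all genes. With 16 libraries Btg2, Cyr61, Dusp5 and Mmp3 rose. Over hβ3 in docetaxel, where 5.69% of all genes rose and 4.38% fell with 18 libraries, 2 feedback genes rose and 0 fell (8 and 0 with 16 libraries, 6 and 0 by DESeq2 on 18). The AP-1 targets had 5 higher and 5 lower (8 and 6 with 16 libraries), and the other immediate-early genes 2 higher and 4 lower (4 and 7). In bulk RNA, fewer cells of a kind and less RNA per cell cannot be told apart.

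**Figure D4:**
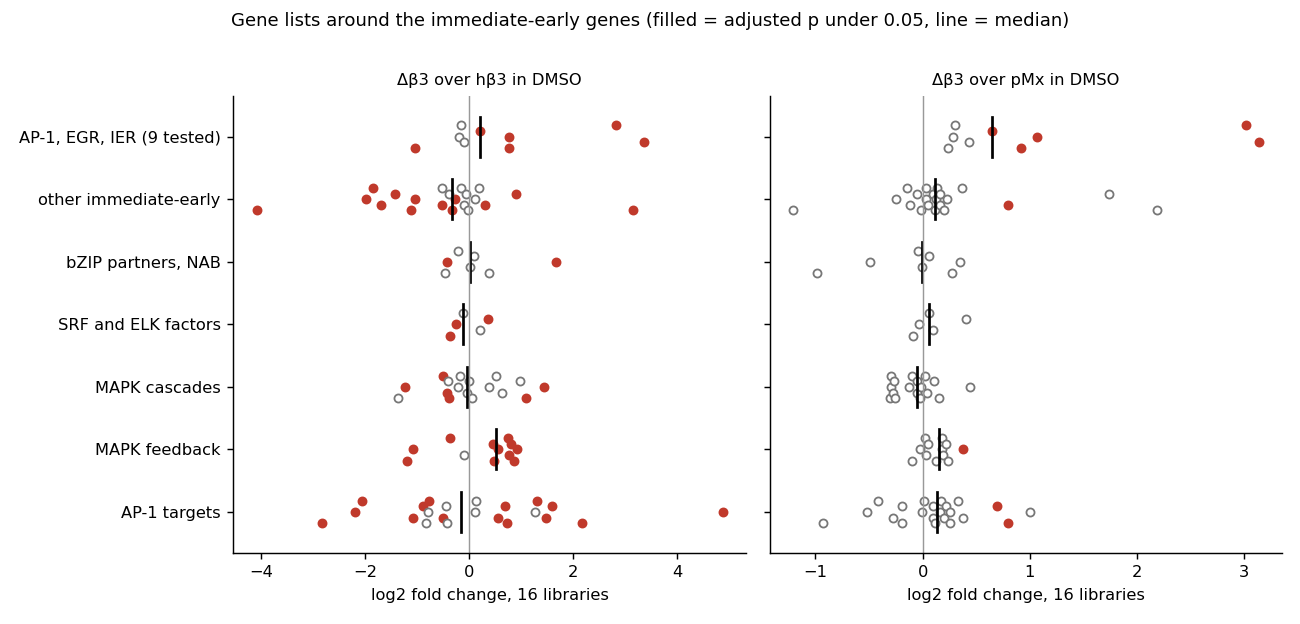
Log2 fold change of each tested gene, by list, for Δβ3 over hβ3 (left) and Δβ3 over pMx (right) in DMSO, from 16 libraries. Each point is a gene, filled where the adjusted p was under 0.05, and the black line is the list's median. Over pMx few listed genes outside the members are filled, and over hβ3 filled points lie on both sides of 0.

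By the smallest root mean square difference of centred log2 CPM over the 16 libraries, the gene most like Fos was Egr1, at 0.567. The centred Fos values themselves had a root mean square of 1.61, and the Fos group means spanned 4.72. Ass1 followed at 0.866 and Kalrn at 0.887. For Egr1 the nearest were Fos, then Cdx2 at 0.621 and Cyp11a1 at 0.762. Cdx2 was scarce, at 0.807 CPM in Δβ3, 0 CPM in hβ3 and 0.0642 CPM in pMx in DMSO, so its likeness rests on few counts. For Fosl1, the nearest were Hbegf at 0.157, Ammecr1 at 0.166 and Ccdc86 at 0.169. Hbegf, an EGF receptor ligand on the AP-1 target list, averaged 94.3 CPM in Δβ3, 202 CPM in hβ3 and 83.2 CPM in pMx in DMSO.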

How the data were processed

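RNA-seq of 18 cultures was analysed. The authors deposited raw read counts per transcript model, which the submitters' processing notes tie to FastQC, HISAT2, featureCounts and mm10. Not given in the sources used here are versions, annotation, strand setting and how reads shared by several models were handled, so a gene with few counts is not shown to be silent. The deposited table also lists model length in bases, a unit of its own used for CPM per kilobase. Library preparation, per the labels, began with 1 µg of RNA, removed ribosomal RNA and gave single 50-base reads.

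Counts of 63759 models were summed to 32699 symbols. Genes passed filterByExpr, were scaled by TMM and tested with edgeR 4.0.16 (R 4.3.3), by a robust two-sided quasi-likelihood F-test with 1 coefficient per group over all 18 libraries, with calls made where the Benjamini-Hochberg adjusted p was under 0.05. The same fit on 16 libraries tested 12356 genes. DESeq2 1.42.0 and limma 3.58.1 (voom with sample weights) were alternatives. CPM is counts per 1e6 counts of scaled library size, and SD is over 3 cultures. Replicates differed beyond counting noise (lowest chi-square per degree of freedom 4.11 over 18 pairs). The fit was tested on simulated data without heart-rich cultures, a setting unlike that of the 18 libraries. Coordinates are from GENCODE M21 (mm10) and promoters from RefSeq (GRCm38.p6), which matched 7 members. Egr1, Fosl1 and Ier2 had no promoter entry used here. Motifs were searched on both strands.

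Members and lists were chosen with earlier results of these data known. Besides all members, the text names up to 3 called genes per list by smallest adjusted p in the Δβ3 comparisons, and the 3 genes most like each of the 3 most variable members. 1 gene that met this rule is not reported here. Dusp5, Tgfb1, Btg2, Igsf11, Mafk and Hbegf's levels were added after their values were seen.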

Additional observations from a re-analysis of the deposited data

Results flagged for a closer look

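The lines differed in their docetaxel response, by a direct test of that difference, for Egr1, Junb and Fosb under some fits and not with edgeR on 18 libraries. The fits on 16 libraries with DESeq2 or RLE factors were chosen after seeing the data, as was the comparison of hβ3 with pMx. For Egr1 the Δβ3 response minus the pMx response was -1.33 by DESeq2 on 16 libraries (adjusted p = 3.9e-06) and -1.33 with RLE factors (adjusted p = 0.00965). For Egr1 the hβ3 response minus the pMx response was -1.64 on 16 libraries, -1.65 by DESeq2, -1.65 with RLE factors and -1.68 with voom weights on 18 libraries. For Junb the Δβ3 response minus the hβ3 response was 0.80 on 16 libraries, 0.80 by DESeq2, 0.80 with RLE factors and 0.72 with voom weights. The Junb hβ3 response minus the pMx response was -0.90 on 16 libraries, -0.92 by DESeq2, -0.92 with RLE factors and -0.87 with voom weights. For Fosb, the hβ3 response minus the pMx response was -0.74 by DESeq2 on 16 libraries (adjusted p = 0.0405).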

How the results depend on the processing

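Main counts were 3 and 1 for Δβ3 over pMx (DMSO, docetaxel), 4 and 4 for Δβ3 over hβ3, 3 and 2 for hβ3 over pMx, 1, 0 and 3 for docetaxel in Δβ3, hβ3 and pMx, and 0 for each difference in response. With 16 libraries they were 5 and 6, 6 and 7, 4 and 4, 4, 3 and 7, and 0, 1 and 2 for the responses of Δβ3 against pMx, Δβ3 against hβ3 and hβ3 against pMx. In the same order, voom weights gave 5 and 7, 6 and 7, 3 and 5, 4, 2 and 6, and 0, 1 and 2. Alternatives chosen after seeing the data were DESeq2 on 16 libraries (7 and 7, 5 and 7, 4 and 4, 5, 3 and 7, and 1, 1 and 3), RLE factors on 16 (5 and 5, 5 and 7, 4 and 5, 4, 3 and 7, and 1, 1 and 2) and leaving out 1 of the 16. Fitting the compared groups alone gave 1 and 0, 4 and 1, 4 and 5, 0, 2 and 5, and 0, 0 and 2. DESeq2 on 18 libraries gave 4 and 1, 4 and 4, 3 and 3, 2, 0 and 3, and 0 for each response. Over all genes it called 35 and 11, 2047 and 1838, 1446 and 1464, 1585, 419 and 872, and 2, 42 and 34. On 16 libraries DESeq2 called 87 and 104, 2708 and 2295, 3059 and 3157, 1410, 1521 and 2465, and 1, 137 and 477 genes. Leaving out Rn45s and heart markers gave 2 for docetaxel in Δβ3, and no filter on low counts gave 1 for hβ3 over pMx in docetaxel. Smaller changes in those latter settings are not listed. RLE factors on 18 libraries, and counts of the leading model alone, gave the main counts. Shares of all genes for the main fit and for 16 libraries stand with the results above. For voom weights, RLE factors, the compared groups alone and a replicate block, totals over all genes are not listed. Their member counts therefore lack that background.

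Replicate numbers did not pair the cultures: same-numbered cultures of different groups had correlated deviations of -0.53 to 0.46 (median 0.05), and 6 of 18 libraries correlated best with their own number. A replicate block gave 2 and 0 for Δβ3 over pMx, 4 and 3 over hβ3, 2 and 1 for hβ3 over pMx, 1, 0 and 2 for docetaxel, and 0 for each response.

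Leaving out 1 of 18 libraries, counts ranged from 0 to 4 and 0 to 2 for Δβ3 over pMx, 4 to 5 and 3 to 6 over hβ3, 1 to 3 and 1 to 4 for hβ3 over pMx, and 0 to 3, 0 to 1 and 1 to 3 for docetaxel in Δβ3, hβ3 and pMx. For the responses they were 0, 0 and 0 to 1. With 1 of 16 left out they were 3 to 7 and 2 to 7, 5 to 6 and 7 to 8, 3 to 5 and 4 to 5, 2 to 5, 2 to 4 and 5 to 7, and 0 to 1, 0 to 1 and 2 to 3. Over all genes, calls for Δβ3 over pMx ranged from 2 to 20 and 1 to 8 with 1 of 18 left out. With 1 of 16 left out they ranged from 10 to 79 and 17 to 75. Over hβ3 these totals were 962 to 2857 and 591 to 2656, and 1917 to 3135 and 1604 to 2706. Egr1 over pMx in DMSO lost its call without pMx DMSO culture 1, 2 or 3 (adjusted p up to 0.118, with log2 differences of 2.94 to 3.14 over all 18 such fits), and Fos without culture 3 (0.0565), in fits on 18 libraries. Of 2205 values of single members, 4 changed sign, none of them called: the docetaxel difference of Jund in Δβ3 was -0.036 without Δβ3 DMSO culture 2, -0.073 without culture 3 and -0.031 without Δβ3 docetaxel culture 2, and that of Egr1 was -0.043 without Δβ3 docetaxel culture 3. Over all fits that left out 1 of 18 libraries they ranged from -0.073 to 0.71 for Jund and from -0.043 to 0.80 for Egr1. The causes were not tested. Fos had 6 counts in its lowest library and Egr2 had 0 to 6 per library, so their values carry more counting error than those of the other members.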
